A study of Mus musculus with 30 samples.

Results

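The transcripts described here are those of 10 genes by which microglia are commonly recognised: Csf1r, Cx3cr1, Trem2, Tyrobp, Fcer1g, C1qa, C1qb, C1qc, Aif1 and Ctss. They were chosen by name, as every probe set of the array whose platform annotation gives 1 of these symbols, which found 16 probe sets for 10 of the 18193 genes that the array measured. Csf1r and C1qb had 3 probe sets each, Cx3cr1 and Trem2 had 2 each, and the other 6 genes had 1 each. Where a gene had several, its tests used the probe set whose log2 signal was highest on average across the 30 arrays, called its main probe set.

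Microglia are the resident macrophages of the brain and spinal cord. They descend from yolk sac precursors that enter the neural tube early in embryonic life, so they do not share an origin with neurons, astrocytes or oligodendrocytes, and they depend for survival on the receptor encoded by Csf1r. They sense their surroundings through Cx3cr1 and through receptors such as Trem2, which signal through the adaptor encoded by Tyrobp, and they are the main source of complement component C1q in the brain. Macrophages of the meninges and around vessels express most of the same genes, so none of the 10 is particular to microglia in the parenchyma.

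RNA was measured on 30 Affymetrix Mouse Genome 430 2.0 arrays in 11 groups, from mice of a mixed Swiss and C57BL/6J background. Of these, 8 arrays were of tissue at E18.5, late in gestation: forebrain and spinal cord of 4 embryos, of which 2 were null and 2 heterozygous. The labels of the tissue arrays name the genotypes Olig2 -/- and Olig2 +/-, the series design names Olig1/2, and neither states the Ink4a/Arf genotype of these embryos. The other 22 arrays were of neurospheres, which are free-floating cultures of neural progenitors, started from the ganglionic eminences of E14.5 embryos. Every neurosphere culture lacked Ink4a/Arf and carried the retrovirus for the mutant receptor EGFRvIII, with puromycin selection and growth in EGF and bFGF without serum. There were 3 Olig1/2+/+, 3 Olig1/2+/- and 6 Olig1/2-/- cultures with no further virus, called untransduced here. A further 2 heterozygous and 3 null lines had been given GFP by retrovirus, and the same 5 lines Olig2 by retrovirus, with blasticidin selection. The passage at harvest ran over a range and is not given for single arrays. Embryos and lines carry separate numbers, and where nothing says how lines were derived, p-values measure only the spread between these samples.

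The deposited values are MAS5 signals on a linear scale, which carry no detection call here, so each signal is set beside the median signal of its array and beside genes of other organs. Array medians ran from 199.8 to 217 in tissue and from 129 to 191 in neurospheres. For 15 genes of other organs, taken as a reference for background, the median signal was 130 in tissue and 106 in neurospheres, and 1 in 10 of their values lay above 234 and 256. Olig2, the targeted gene, gave 109 and 179 in null against 269 and 519 in heterozygous forebrain, and 23.8 and 58.5 against 335 and 736 in spinal cord. In untransduced neurospheres Olig2 signal ran from 6177 to 11577 in null and from 11500 to 18048 in the other cultures, and the sources used here do not say where the probes lie relative to the deletion. Of 6 forebrain markers all 6 were lower in spinal cord, and 6 of 7 Hox genes used as spinal cord markers were higher. In the neurospheres the progenitor genes Sox2, Nes, Vim and Fabp7 reached the array median on all 22 arrays, while Hes5 did so on 9 and Prom1 on 5.

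RefSeq promoters of assembly GRCm38.p6 were available for 7 of the 10 genes. They were searched for GAGGAA and GGAAGT, forms of the site bound by the macrophage factor PU.1 (encoded by Spi1), on both strands in the 250 bases before the start site. The promoters of C1qb, C1qc and Ctss are shown because these genes rose together from forebrain to spinal cord and hold at least 1 of the motifs. They are written 5′ to 3′ along the strand of the gene, with matches in capitals. The stretches are chr4:136886201-136886450 on the minus strand for C1qb, chr4:136892937-136893164 on the minus strand for C1qc and chr3:95526536-95526785 on the plus strand for Ctss.
C1qb: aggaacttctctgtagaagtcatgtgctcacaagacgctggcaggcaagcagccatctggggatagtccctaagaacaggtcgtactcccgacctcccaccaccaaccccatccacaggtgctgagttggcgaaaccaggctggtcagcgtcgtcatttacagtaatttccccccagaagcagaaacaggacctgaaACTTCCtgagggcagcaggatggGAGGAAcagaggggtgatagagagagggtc
C1qc: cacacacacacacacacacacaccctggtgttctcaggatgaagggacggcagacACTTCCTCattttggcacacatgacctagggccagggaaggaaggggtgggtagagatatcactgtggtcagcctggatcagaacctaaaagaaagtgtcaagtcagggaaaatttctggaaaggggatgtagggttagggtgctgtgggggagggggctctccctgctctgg
Ctss: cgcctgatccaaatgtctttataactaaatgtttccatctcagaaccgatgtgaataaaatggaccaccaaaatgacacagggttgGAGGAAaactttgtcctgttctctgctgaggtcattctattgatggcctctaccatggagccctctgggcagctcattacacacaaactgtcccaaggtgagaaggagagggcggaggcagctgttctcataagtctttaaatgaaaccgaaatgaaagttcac
In C1qb the capitals mark GGAAGT on the opposite strand, ending 48 bases before the start, and GAGGAA on the gene's strand, ending 25 bases before it. In C1qc both motifs lie on the opposite strand and overlap, and in Ctss GAGGAA lies on the gene's strand, ending 159 bases before the start. Trem2 and Aif1 also held GAGGAA, whereas the windows of Cx3cr1 and Fcer1g held neither sequence. In all, 5 of 7 promoters held at least 1 of the motifs, and so did 36.74% of 32851 promoters of the same length (23.25% for GAGGAA and 19.74% for GGAAGT). A match is a description of the sequence and not a measured binding site.

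Most of the microglial genes read above the array median in spinal cord. Their signal was lower in forebrain, where C1qa and Fcer1g fell below the median of the background reference on some arrays. Most of the tissue signal was missing from the neurospheres. Of the 10 genes, 8 reached the array median on each of the 4 spinal cord arrays, 5 to 7 on the forebrain arrays and 1 to 3 on the neurosphere arrays. The summed signal of the 10 genes was 6610.3 to 9606 in spinal cord, 2551 to 3323 in forebrain and 614 to 1361 in neurospheres. Aif1 and Trem2 did not reach the median on any tissue array. In bulk tissue, fewer cells of a type and less RNA per cell cannot be told apart.

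**Figure D1:**
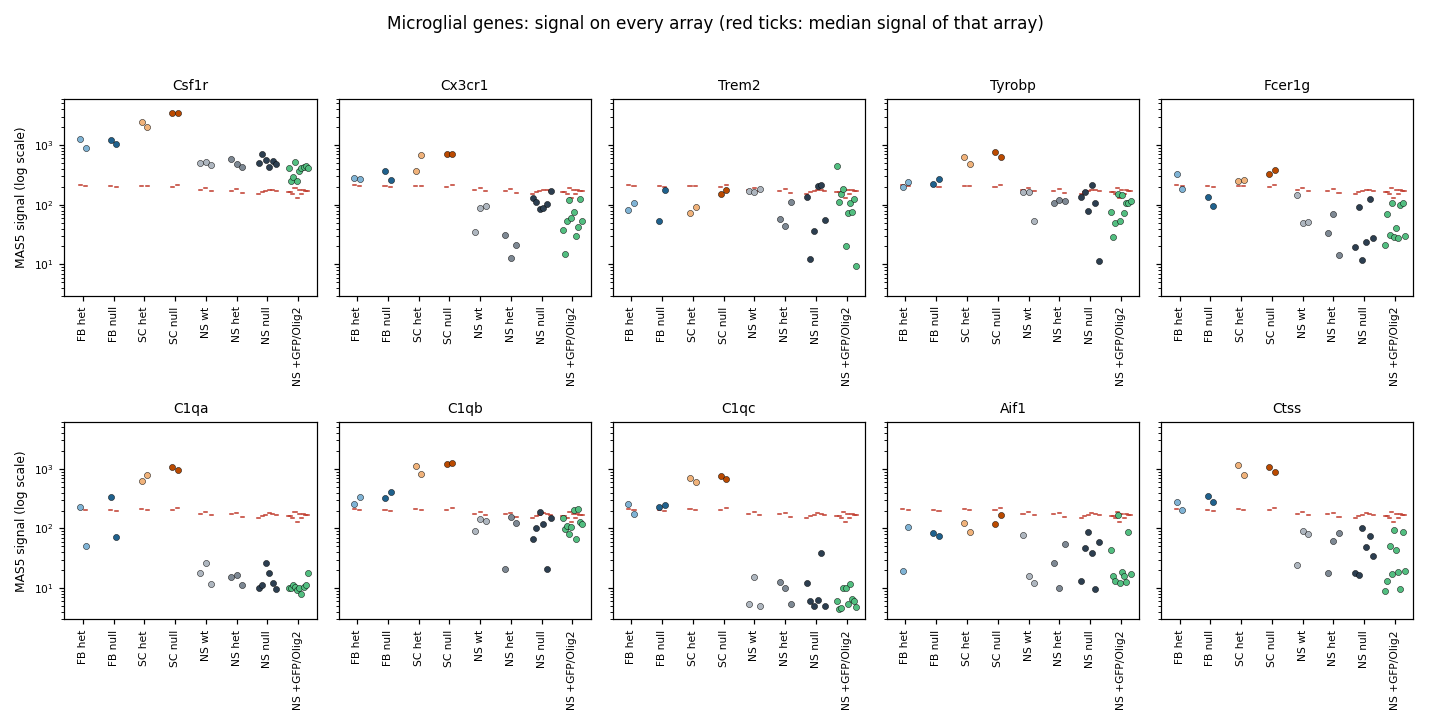
Signal of the 10 microglial genes on all 30 arrays (vertical axis, MAS5 signal on a log scale), with 1 point per array, for forebrain (FB), spinal cord (SC) and neurospheres (NS) by genotype, with all cultures given GFP or Olig2 virus in the last column. Red ticks mark each array's median signal; Csf1r lies above them everywhere, while C1qa and C1qc fall to 39.5 or less in every neurosphere culture.

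Csf1r encodes the receptor for CSF1 and IL-34 on which microglia depend. Its signal was 1213 and 1038 in the null forebrains and 1254 and 883 in the heterozygous ones. In spinal cord it was 3419.6 and 3442 in the null and 2483 and 2009 in the heterozygous embryos. The lowest spinal cord array lay well above the highest forebrain array, and in spinal cord, but not in forebrain, both null arrays lay above both heterozygous arrays.

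Cx3cr1, the receptor for the neuronal chemokine fractalkine, gave 371 and 257 in null and 280.4 and 272 in heterozygous forebrain. In spinal cord it gave 724 and 707 in the null and 368 and 675 in the heterozygous embryos. Of the spinal cord arrays 3 stood above every forebrain array, and the heterozygous embryo 3 lay at the level of the highest forebrain. The second Cx3cr1 probe set read 7.7 to 22.9 in forebrain and 7.9 to 124 in spinal cord, below the array median throughout.

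Trem2, a lipid-sensing receptor of microglia, stayed below the array median in all tissue. It gave 52.5 and 180.1 in null and 81.1 and 108 in heterozygous forebrain, and 153 and 178 against 73.3 and 90.5 in spinal cord. The spread within forebrain was as wide as the whole range in spinal cord.

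Tyrobp, the adaptor also called DAP12 that carries the signal of Trem2, gave 224 and 272 in null and 199 and 237 in heterozygous forebrain. In spinal cord it gave 762 and 634 against 626 and 488 (the heterozygous values last). All spinal cord arrays lay above all forebrain arrays. In spinal cord both null arrays lay above both heterozygous ones, though narrowly (634 against 626), and in forebrain the 2 genotypes overlapped.

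Fcer1g, the adaptor of immunoglobulin receptors, gave 134 and 96.4 in null and 332 and 181 in heterozygous forebrain. In spinal cord it gave 331 and 388 in null and 251 and 264 in heterozygous embryos. Both null forebrains lay below both heterozygous ones, and in spinal cord the order was the opposite.

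C1qa, C1qb and C1qc, neighbouring genes on chromosome 4, encode the 3 chains of C1q, the molecule that starts the classical complement cascade. C1qa gave 334 and 72.5 in null and 230.4 and 50.5 in heterozygous forebrain, against 1073, 958, 633 and 783 in spinal cord (null embryos first). In forebrain the C1qa arrays of embryos 1 and 3 stood apart from those of embryos 2 and 4, across the genotypes. C1qb gave 329 and 402 in null and 253 and 332 in heterozygous forebrain, and 1196, 1258, 1121 and 809 in spinal cord in the same order. C1qc gave 232 and 249 in null and 259 and 176 in heterozygous forebrain, and 749, 682, 702 and 605 in spinal cord. For all 3 genes no spinal cord array came down to a forebrain array.

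Aif1, which encodes the actin-binding protein IBA1 used to stain microglia, stayed below the array median. It gave 83.0 and 73.9 in null and 19.7 and 105 in heterozygous forebrain, and 119, 167, 124 and 88.0 in spinal cord (null embryos first). Ctss, the lysosomal protease cathepsin S, gave 351 and 278 in null and 276 and 207 in heterozygous forebrain. In spinal cord Ctss gave 1082 and 889 in the null and 1171 and 799 in the heterozygous embryos, so that the regions were far apart while the genotypes of spinal cord overlapped.

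Spinal cord was compared with forebrain with the genotypes weighted equally. All tests used limma on log2 of the signal plus 16, 2-sided, with Benjamini-Hochberg adjustment over all genes tested, and a difference counted as called where the adjusted p was under 0.05. Of the 10 genes 8 were tested, as Aif1 and Trem2 did not pass the filter on low signal, and 8 of these 8 were higher in spinal cord than in forebrain, where 21.3% of all 12342 genes tested were called higher. In forebrain Fcer1g reached the array median in the heterozygous embryo 3 alone. It passed the filter only through the spinal cord arrays, where it was high, so its place in this count partly follows from the filter. The median log2 difference of the 8 was 1.44, against -0.0057 over all genes tested. Fitted without the filter, Aif1 (0.81, adjusted p 0.21) and Trem2 (0.24, 0.73) were not called. For 6 of the 10 genes (Csf1r, Tyrobp, C1qa, C1qb, C1qc and Ctss) no spinal cord array overlapped with forebrain, which held for 14.6% of all genes.

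C1qa rose most, by 2.52 ± 0.44 (SE, adjusted p 9.3e-04), and its mean signal was 862 ± 194 (SD, n = 4) in spinal cord against 172 ± 134 (SD, n = 4) in forebrain. Ctss rose by 1.77 ± 0.16 (adjusted p 9.2e-06), C1qb by 1.69 ± 0.14 (5.3e-06) and C1qc by 1.52 ± 0.16 (2.2e-05). Tyrobp rose by 1.36 ± 0.16 (5.0e-05) and Csf1r by 1.34 ± 0.12 (6.3e-06), which in mean signal was 2.59 times the forebrain level for Csf1r. Cx3cr1 rose by 0.99 ± 0.20 (0.0020). Fcer1g rose by 0.80 ± 0.24 (0.023), a call that was lost when any of 5 single arrays was left out: null forebrain 2 (0.69, adjusted p 0.064), heterozygous forebrain 4 (0.59, 0.078), null spinal cord 2 (0.74, 0.081), heterozygous spinal cord 3 (0.81, 0.055) or heterozygous spinal cord 4 (0.78, 0.063). The 95% interval of the C1qa difference, 1.54 to 3.50, took in the values of C1qb, Ctss and, nearly, C1qc, so an order among the complement genes was not shown.

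The probe sets of a gene did not all behave alike. For Csf1r, 2 probe sets rose from forebrain to spinal cord, by 1.34 and 1.10, and the third, 1423593_a_at, gave 406 to 573 in forebrain and 394 to 708 in spinal cord, a difference of 0.16 ± 0.20 (adjusted p 0.56). The arrays of the 2 regions overlapped for that probe set alone among the 3. The 3 probe sets of C1qb rose by 0.91, 1.69 and 1.75, each with an adjusted p of 8.1e-04 or less. The smallest of these came from 1417063_at, whose name carries no mark of cross-hybridisation. Probe set names ending in x_at mark possible cross-hybridisation with other transcripts.

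**Figure D2:**
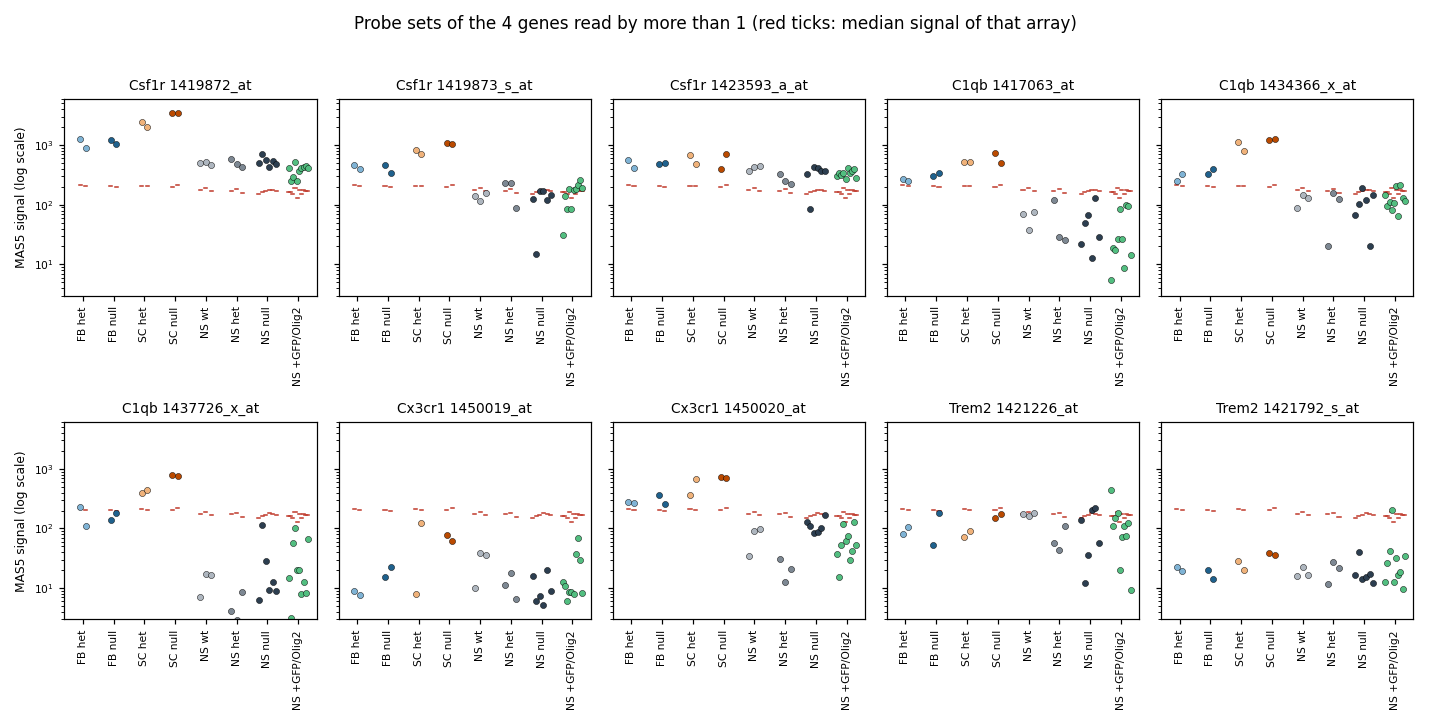
Signal of every probe set of the 4 genes read by more than 1 probe set, 1 point per array, on a log axis in MAS5 signal units, with groups as labelled (FB forebrain, SC spinal cord, NS neurospheres) and red ticks at each array's median. For Csf1r the probe set 1423593_a_at runs from 394 to 708 in spinal cord against 406 to 573 in forebrain, while the other 2 probe sets separate the regions.

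Other genes of the microglial programme were described from lists of markers. Of 25 further microglia and macrophage genes on the array 19 were tested, with a median of 0.46 over the 19. Of the 19, 6 rose in spinal cord and the rest did not, beside 21.3% of all genes tested that were called higher. These were Olfml3 (1.59), Mpeg1 (1.42), the homeostatic microglial gene Tmem119 (1.40), Ly86 (1.40), the transcription factor gene Sall1 (0.93) and Adgre1, which encodes F4/80 (0.81). P2ry12, a purine receptor of resting microglia, did not pass (0.55, adjusted p 0.14), nor did Spi1 (0.38, 0.27). Gpr34, Itgam, Itgb2, Ptprc, Selplg and Irf8 were not tested, their signals being too low, so the list was read from its better measured genes.

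Further lists held genes of the pathways around the 10, to be read against the 21.3% of all genes called higher in spinal cord. Of the 13 cathepsins and their inhibitors, 11 rose, led by Ctsh (1.55) and Ctso (1.20). Of 12 genes of signalling through the adaptors encoded by Tyrobp and Fcer1g, 1 rose (Vav1, 0.56), and of 6 further complement genes 2 rose (Serping1, 1.29, and Cd59a, 0.64). Of 9 ligands and survival signals 4 rose and 1 fell: Cx3cl1, the ligand of Cx3cr1, rose by 1.17, Tgfb2 by 0.70, Tgfbr2 by 0.64 and Cd200 by 0.37, while the receptor gene Tgfbr1 fell by 0.85. Csf1, a ligand of the Csf1r product, did not pass (0.34, adjusted p 0.097). Among genes of activated or tract-associated microglia 3 of 6 rose, namely Apoe (2.45), Igf1 (1.33) and Cd9 (0.67), and Lpl fell by 1.28. Apoe is also made by astrocytes.

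Markers of other cells moved with the same regional difference. Of 8 meningeal and fibroblast genes 7 rose (median 2.88), and their summed signal was 16367 to 28862 in spinal cord against 2335 to 2985 in forebrain. Of 7 markers of border macrophages, which live in the meninges and around vessels, 3 rose: F13a1 (2.02), Pf4 (1.69) and Mrc1 (1.27). Their list summed to 2171 to 5104 in spinal cord and to 1351 to 1636 in forebrain, with Cd163 and Cbr2 at 120.6 or less throughout. Red cell genes rose in 2 of 3 (Alas2 by 1.80 and Hbb-b2 by 0.94), astrocyte genes in 10 of 10, and endothelial and mural genes in 5 of 11. Of 3 monocyte and granulocyte genes 0 rose. These counts too stand beside the 21.3% of all genes called higher. The ratio of the 3′ to the 5′ Gapdh control probe set, a sign of RNA integrity, also differed: its log2 was -0.22 to -0.066 in forebrain and 0.037 to 0.37 in spinal cord. The part of these cells and of the RNA in the regional difference was not tested.

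**Figure D3:**
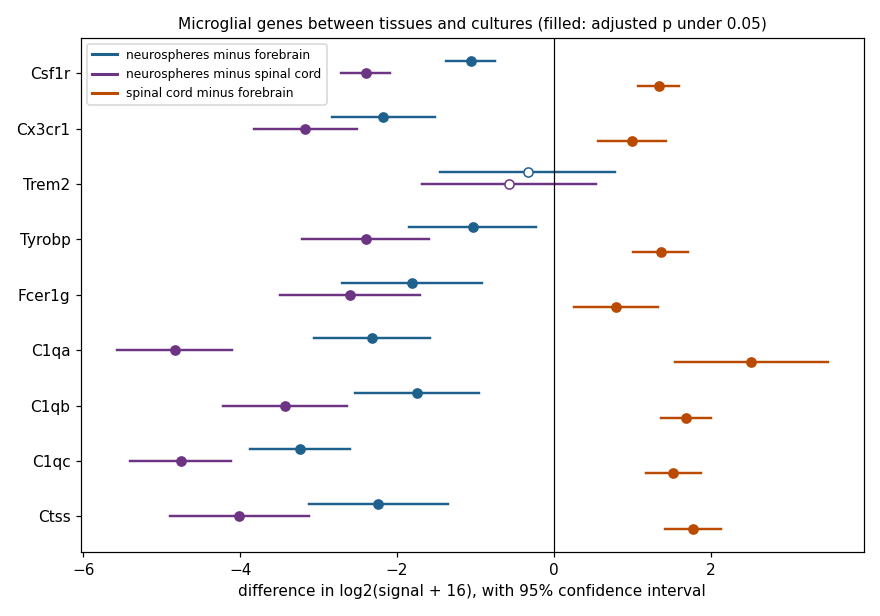
Differences in log2(signal + 16) between tissues and cultures (horizontal axis) for the 9 microglial genes with at least 1 test, with points at the estimate and bars for the 95% confidence interval; filled points passed an adjusted p under 0.05. The 8 genes tested between the tissues lie to the right of 0 for spinal cord minus forebrain, and the neurosphere comparisons lie to the left, with Trem2 crossing 0.

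The comparison of Olig genotypes asked whether the microglial signal of the tissue differed between null and heterozygous embryos, and no microglial gene was called in either region. In forebrain 0 of the 8 genes tested were called, where 0.0405% of 12342 genes were (5 genes, and 782 at an unadjusted p under 0.05). In spinal cord 0 of 8 were called, where 0.13% of 12342 genes were (16 genes, and 742 at an unadjusted p under 0.05). With 2 embryos a genotype, only wide intervals can be given.

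In forebrain 7 of the 8 differences, null minus heterozygous, were positive, with a median of 0.17 against 0.0019 over all genes. Csf1r differed by 0.091 (95% interval -0.27 to 0.46), Cx3cr1 by 0.15 (-0.46 to 0.76), Tyrobp by 0.17 (-0.32 to 0.67) and C1qc by 0.16 (-0.33 to 0.65). C1qb differed by 0.31 (-0.14 to 0.76), Ctss by 0.37 (-0.14 to 0.88) and C1qa by 0.46 (-0.92 to 1.84). Fcer1g was the exception at -1.01 (-1.78 to -0.25, unadjusted p 0.014, adjusted p 0.67). Ctss alone had both null arrays above both heterozygous arrays, 1 of 10 genes, against 17.2% of all genes. The differences of C1qa, C1qc, Csf1r and Cx3cr1 turned negative when 1 forebrain array was left out.

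In spinal cord all 8 differences were positive, with a median of 0.41 against -0.0043 over all genes. Csf1r was 3431 ± 15.7 (SD, n = 2) in null and 2246 ± 335 (SD, n = 2) in heterozygous embryos, a log2 difference of 0.62 ± 0.17 (SE, 95% interval 0.25 to 0.98), which did not pass the adjustment (unadjusted p 0.0035, adjusted p 0.42). Cx3cr1 differed by 0.51 (-0.11 to 1.12), C1qa by 0.52 (-0.86 to 1.90), Fcer1g by 0.45 (-0.31 to 1.22), C1qb by 0.36 (-0.091 to 0.81), Tyrobp by 0.32 (-0.17 to 0.82), C1qc by 0.13 (-0.36 to 0.62) and Ctss by 0.019 (-0.49 to 0.53). For 7 of the 10 genes both null arrays lay above both heterozygous ones (Csf1r, Cx3cr1, Trem2, Tyrobp, Fcer1g, C1qa and C1qb), against 16.6% of all genes. These 7 results come from the same 4 embryos and are not independent of each other. The third Csf1r probe set did not share the difference (-0.11, 95% interval -0.73 to 0.52). The null arrays also did not all lie above the heterozygous ones for C1qb 1417063_at or the second Cx3cr1 probe set. The remaining probe sets of these genes separated as the main ones did. Trem2 was below the array median on all of these arrays, so its order carries little weight.

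The summed signals of other marker lists were also higher in the null embryos among these 4 spinal cords, though single genes differed in direction. The meningeal genes summed to 28172 and 28862 in the null embryos and to 16367 and 21540 in the heterozygous ones, and Dcn, which encodes decorin, was called higher in null (0.99, adjusted p 0.043). Border macrophage genes summed to 4222 and 5104 in null against 2171 and 3123, with Pf4 at 1.06 (adjusted p 0.22) and F13a1 at 1.03 (0.29), neither called. The 25 further microglia and macrophage genes summed to 7468 and 7703 against 7085 and 7086, and 0 of the 19 tested were called (median 0.017). Their part in the higher Csf1r values of the null spinal cords was not tested. For comparison, 4 of 7 oligodendrocyte genes fell in the same arrays. These were Mbp (-2.95), Cnp (-1.15), and Olig2 (-3.24) and Olig1 (-1.03), the genes that the genotype labels or the series design name. In forebrain the red cell gene Hbb-b2 was higher in null embryos by 1.90 (adjusted p 0.043), and Spi1, which encodes PU.1, read lower without a call (-1.45, unadjusted p 0.0023, adjusted p 0.52).

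Whether the genotype difference itself differed between spinal cord and forebrain was tested directly. Of the 8 genes 0 were called, as of all 12342 genes (0%, with 705 at an unadjusted p under 0.05). The largest values were for Fcer1g, with -1.01 in forebrain and 0.45 in spinal cord, neither called (difference 1.47, 95% interval 0.39 to 2.54, adjusted p 0.83), and for Csf1r (0.52, 0.0065 to 1.04, adjusted p 0.86). The other 6 ran from -0.35 for Ctss to 0.35 for Cx3cr1.

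**Figure D4:**
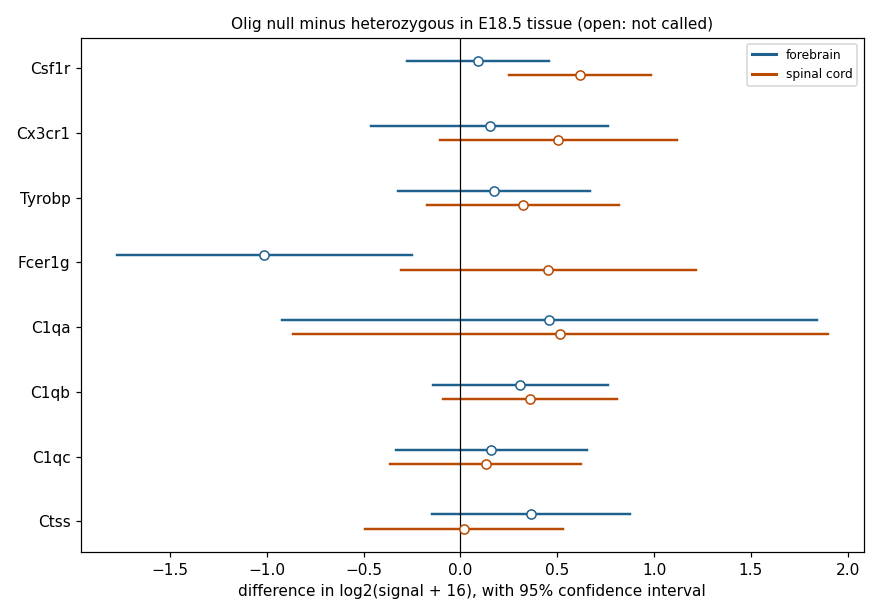
Null minus heterozygous difference in log2(signal + 16) (horizontal axis) for the 8 microglial genes tested, in E18.5 forebrain and spinal cord, with bars for the 95% confidence interval. All points are open, as no gene was called; Fcer1g in forebrain (-1.01) and Csf1r in spinal cord (0.62) have intervals that leave out 0.

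What remained of the signal in culture was read by setting untransduced null and heterozygous neurospheres against null and heterozygous tissue. Against forebrain 8 of the 9 genes tested were lower in neurospheres, where 29.8% of 14010 genes were called lower. Against spinal cord again 8 of 9 were lower, where 29.8% of the same genes were. C1qa, C1qc, Ctss and Fcer1g did not reach the array median in any culture. Cx3cr1 and Tyrobp reached it in too few cultures to pass the filter on low signal by the cultures alone. All of these genes passed only through tissue arrays, where they were high, so these counts partly follow from the filter. The median difference of the 9 was -1.81 against forebrain and -3.17 against spinal cord, and both comparisons share the neurosphere arrays. Every forebrain array lay above all 22 neurosphere arrays for 6 of the 10 genes (Csf1r, Cx3cr1, C1qa, C1qb, C1qc and Ctss), as for 2644 of all 18193 genes. Every spinal cord array did so for 8 of the 10, all but Aif1 and Trem2, as for 15.7% of all genes. Cultures and tissue also differ in age, in selection and in EGFRvIII, and the Ink4a/Arf status of the tissue is not known here, so these cannot be told apart from the loss of a cell type.

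C1qc and C1qa lay far below the median of the background reference in every culture. C1qc ran from 4.5 to 39.5 over all 22 neurosphere arrays, with a median of 6.15. C1qa ran from 7.9 to 26.7 with a median of 11.4. C1qc differed by -3.24 ± 0.31 (SE, adjusted p 1.5e-09) from forebrain and by -4.76 ± 0.31 (1.0e-12) from spinal cord, and C1qa by -2.32 ± 0.36 (3.6e-06) and -4.84 ± 0.36 (1.1e-11). Because 16 is added to the signal, these differences understate the change of such low values.

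Ctss ran from 8.9 to 103 in the neurospheres (median 39.2) and differed by -2.24 ± 0.43 (adjusted p 7.1e-05) from forebrain and by -4.01 ± 0.43 (1.0e-08) from spinal cord. Cx3cr1 ran from 12.9 to 170.1 (median 67.7) and differed by -2.17 ± 0.32 (1.5e-06) and -3.17 ± 0.32 (2.7e-09). Fcer1g ran from 11.7 to 146 (median 37.4) and differed by -1.81 ± 0.43 (7.9e-04) and -2.60 ± 0.43 (1.0e-05). Of these 3 genes, Fcer1g alone overlapped between the forebrain and the cultures.

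C1qb and Tyrobp had medians near that of the background reference in culture. C1qb ran from 20.6 to 212 (median 119) and differed by -1.74 ± 0.38 (adjusted p 3.4e-04) from forebrain and by -3.43 ± 0.38 (2.0e-08) from spinal cord. Its other 2 probe sets read 5.5 to 132 and 2.9 to 116 in the same cultures, so the remaining signal depended on the probe set. Tyrobp ran from 11.5 to 216 (median 108) and differed by -1.04 ± 0.39 (0.026) from forebrain and by -2.40 ± 0.39 (8.3e-06) from spinal cord. The forebrain call of Tyrobp was lost under quantile normalisation (-0.78, adjusted p 0.084), in a fit of the compared groups alone (-1.04, 0.053) and without null forebrain 2 (-0.97, 0.082) or heterozygous forebrain 4 (-0.98, 0.078).

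Aif1 ran from 9.7 to 168 in neurospheres (median 17.9) and Trem2 from 9.4 to 447 (median 110.1). Trem2 was not called against forebrain (-0.33, 95% interval -1.45 to 0.78) or spinal cord (-0.57, -1.68 to 0.54). Neither gene was above the array median in tissue, so a loss could hardly be seen. Fitted without the filter, Aif1 differed by -0.74 from forebrain (adjusted p 0.21) and by -1.54 from spinal cord (0.0069).

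Csf1r was the 1 gene whose signal stayed above the array median in all 22 cultures. Its main probe set ran from 249.9 to 711 (median 453), which put it at the 60.1st to 79.6th percentile of its array, against the 82.4th to 87.6th in forebrain and the 93.0th to 96.5th in spinal cord. It differed by -1.06 ± 0.15 (SE, adjusted p 1.2e-06) from forebrain and by -2.40 ± 0.15 (5.7e-13) from spinal cord, and its mean in culture was 41.3% and 15.98% of the 2 tissue means. The other Csf1r probe sets read 14.7 to 259 and 85.2 to 445 in culture. The first of these reached the array median in 8 of the 22 cultures. The second, 1423593_a_at, did so in 21 and was the probe set that did not separate the regions. Of the 9 other genes none stayed above the median in more than 4 of the 22 cultures, which Trem2 did in 4 and C1qb in 3.

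The wider list of microglia and macrophage genes is read against all genes tested, of which 29.8% were lower and 30.2% higher in culture than in forebrain. Of its 22 tested genes 4 were lower: Mpeg1 (-1.56), Ly86 (-1.36), Fcrls (-1.16) and Tlr2 (-0.62). Another 3 were higher, namely Olfml3 (1.93), Sall1 (1.53) and P2ry12 (0.70), and 15 were not called. Sall1 was above the array median in all 22 cultures at 611 to 1531, and Olfml3 also, at 183 to 2404. Sall1 is also expressed by neural progenitors. Ptprc, which encodes the leukocyte antigen CD45, Itgam, Gpr34, Ly86, Mpeg1 and Cd53 reached the array median in 0 of the 22 cultures. Of 7 border macrophage genes Mrc1 and F13a1 fell (0.87 and 0.61 below forebrain), whereas Pf4, a platelet chemokine gene, was 3.82 above forebrain.

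Among other cell types neuron genes fell in 12 of 12 and endothelial and mural genes in 10 of 11 against forebrain, and the red cell genes Hbb-b2 and Alas2 fell too (-3.23 and -2.96). Of the 13 cathepsins and inhibitors 7 were higher in culture than in forebrain, beside the same 30.2% of all genes, led by Ctsc (2.94), Ctsd (1.69) and Ctsl (1.44), and 1 was lower, Ctsz (-3.02). Of 10 ligands and survival signals 3 were higher (Tgfbr2 by 2.66, Csf1 by 0.67 and Tgfb1 by 0.60) and 4 were lower, with Cd200 at -5.29, Csf2ra at -1.29, Cx3cl1 at -0.81 and Tgfbr1 at -0.74. Csf1 signal was 367 to 925 in the cultures, above the array median in all 22.

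Within the neurospheres few of the microglial genes could be tested. Between null and Olig-expressing cultures 2 of the 10 passed the filter and 0 were called, where 8.32% of 12022 genes were. Csf1r read 423 to 711 in the 6 null, 427 to 584 in the 3 heterozygous and 457 to 523 in the 3 wild-type cultures, a difference of 0.10 (95% interval -0.18 to 0.38). Trem2 differed by -0.36 (-1.47 to 0.74). The ranges of the genotypes overlapped for both genes.

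Cx3cr1 was below the array median in 11 of the 12 untransduced cultures and so was not tested. It gave 83.5 to 170.1 in the 6 null cultures, 35.0, 89.9 and 96.5 in the wild-type and 31.1, 12.9 and 20.8 in the heterozygous ones. The null cultures were above all heterozygous ones and overlapped with 2 of the 3 wild-type ones. Without the filter it was called higher in null cultures (1.18, adjusted p 0.026), on signals of 170.1 or less. Its other probe set differed the other way (-0.38, 95% interval -0.91 to 0.15). Of the 14 further microglia and macrophage genes tested there, P2ry12 (1.51, adjusted p 6.4e-04) and Cd14 (0.91, 0.041) were higher in null cultures. The ligand gene Cx3cl1 was lower there (-1.05, adjusted p 0.0021), and Apoe was higher (1.68, 0.049). Of the cathepsins and inhibitors Ctsh was called lower (-2.05, 5.3e-04). Lgmn (1.37, 1.63e-04), Cst3 (0.58, 3.95e-04) and Ctsb (0.60, 0.0096) were called higher.

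Null lines with the Olig2 virus were compared with the same lines with GFP, and 0 of the 2 genes tested were called, where 7.88% of 12458 genes were called. The Olig2 probe set did not read higher with the Olig2 virus: it gave 4450.3 to 10011 against 8279 to 10275 with GFP (-0.53, unadjusted p 0.042, adjusted p 0.18). With GFP, Csf1r read 287, 251 and 409 in the null lines 12, 13 and 14, and with Olig2 it read 511, 372 and 426, higher in each of the 3 lines. The difference was 0.47 (95% interval -0.068 to 1, adjusted p 0.26). C1qb read 112, 107 and 65.9 with GFP and 80.3, 207 and 212 with Olig2, a difference of 0.64 (-0.30 to 1.59, 0.38). The GFP virus itself was compared with the same lines before it, and 1 gene was tested and 0 called, where 0.0241% of 12427 genes were. Csf1r read 415 and 449 in the heterozygous lines 11 and 15 with GFP, against 584 and 490 without it. In the null lines it was 507, 711 and 556 without it, so it was lower with GFP in 5 of 5 lines (-0.59, 95% interval -0.95 to -0.24, unadjusted p 0.0037, adjusted p 0.23). The other Csf1r probe sets gave -0.35 (-1.63 to 0.94) and, for 1423593_a_at, 0.32 (-0.43 to 1.07). All 3 null lines with GFP had a higher log2 Gapdh 3′ to 5′ ratio than any untransduced culture. It was -0.090, 0.43 and -0.040 in lines 12, 13 and 14, against -0.33 to -0.13. The heterozygous lines with GFP (-0.24 to -0.14) and the null lines with Olig2 (-0.25 to -0.20) did not stand out. Array medians were 129 to 151.6 in the null lines with GFP and 173.6 to 191.2 with Olig2. Line 13 with GFP, at a Csf1r signal of 251, had the highest ratio of the neurospheres and a labelled A260/A280 ratio of 2.83. The part of RNA and array quality in the Csf1r differences with GFP and with Olig2 was not tested.

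Which other genes ran most like the 10 was read from Pearson correlation with the mean of their standardised log2 values. Over the 8 tissue arrays, among 12334 other genes tested there, these were Tgfbi (r = 0.998), Dcn (0.996), Ctsh (0.994), Pltp (0.994), Fuca1 (0.990), Lgi2 (0.989), Col3a1 (0.989), Ociad1 (0.988), 2610507B11Rik (0.988) and Sparc (0.987). The 8 points are 4 embryos measured in 2 regions, so the values describe mainly the step between the regions. Dcn and Col3a1 are on the meningeal list and Ctsh on the cathepsin list, while none of the 10 is on the microglia list. The microglial genes are each part of this mean, which raises their own r. Of them Csf1r followed the mean most closely (0.979), then Tyrobp (0.974) and C1qb (0.974), and Fcer1g (0.676), Aif1 (0.656) and Trem2 (0.376) followed it least.

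Over the 22 neurosphere arrays the values of the 10 genes ran less together. Csf1r had an r of 0.654 with their mean, Tyrobp 0.593, C1qa 0.538, and C1qb 0.029. Each of these is part of that mean, which raises its r, whereas the other genes ranked are not. The other gene most like the mean was Flot2 (0.798), followed by Adad2 (0.792), 4933417D19Rik (0.783), Tnfrsf4 (0.776) and Ms4a3 (0.753), of 12020 genes ranked. The arrays share lines and the signals lie mostly at background, so these values are given as a description only.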

How the data were processed

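Total RNA of 30 samples was hybridised to 30 arrays. The authors deposited MAS5 signals, intensity on a linear scale, per the submitters' processing notes; with 2% of probe sets trimmed from either end, each array had a mean signal of 500. The MAS5 version was not given in the sources used here. No use was made of detection calls. Precision is limited by how many arrays there are, and arrays of 1 group correlated at 0.926 to 0.945.

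The array has 45101 probe sets, of which 64 are controls; the platform annotation gives 1 symbol for 34945, several for 932 and none for 9160. By Entrez identifier 34741 were matched to RefSeq (GRCm38.p6), which changed 0 symbols. Each gene was read from 1 probe set, of highest mean log2 signal. A gene entered a fit if the number of arrays on which it reached the array median was at least the size of the smallest group. Values were log2 of the signal plus 16, fitted with limma 3.58.1 in R 4.3.3 (with data.table, version 1.17.8), with a trend, Benjamini-Hochberg adjustment and a threshold of 0.05. Tissue comparisons used the 8 tissue arrays, culture against tissue all 30, and neurosphere comparisons the 12 untransduced or 10 arrays. The same procedure was tested on simulated data. Python 3.11.15 with matplotlib 3.10.9 made the plots.

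The members, the lists of other genes and the comparisons were chosen with earlier results of these data known. Named were all members, up to 4 genes of smallest p from each list described, and the 10 genes most like the members; further list genes named were chosen after their values were seen. The titles give forebrain and spinal cord the same embryo numbers and virus-treated cultures the numbers of their lines, which pairs them; deviations of paired tissue arrays from the group means correlated at 0.0255 to 0.0402, while lines given GFP correlated with the same lines untransduced at -0.0965 to -0.0179 and with Olig2 at 0.0068 to 0.13. Fits were made without a block, and with it as an alternative. The other alternatives were pseudocounts 1 and 64, a filter at a signal of 200 or none, scaling by quantiles or to the 75th percentile, every probe set as its own feature, no _s_at or _x_at probe sets, array weights, no trend, the compared groups alone, and each array left out. The labels give the same hybridisation date for every array.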

Additional observations from a re-analysis of the deposited data

Results flagged for a closer look

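In the group of 6 untransduced null neurospheres, some arrays lay far from the other 5 for a microglial probe set. Null line 13 did so for 4 probe sets: Csf1r 1419873_s_at at 14.7 (the others 119 to 170), Csf1r 1423593_a_at at 85.2 (328 to 424), C1qb 1437726_x_at at 116 (6.4 to 28.7) and Trem2 1421792_s_at at 41.0 (12.1 to 17.2). Its main Csf1r probe set was the highest of the 6, at 711, so the Csf1r probe sets of this culture did not move together. Null line 21 lay apart for C1qc at 39.5 (5.0 to 12.3). Chance flags about 1 in 20 groups, and 16 probe sets were looked at in this group.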

How the results depend on the processing

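No microglial gene was called for genotype in tissue, for Olig2 against GFP or for GFP under the alternatives run. Between null and Olig-expressing neurospheres 1 gene, Cx3cr1, was called without the filter, which admits its low signals. Of the 8 genes called between the tissues 7 remained when any of 5 arrays was left out (Fcer1g was lost), and of the 8 lower in neurospheres than in forebrain 7 remained under quantile normalisation and without either of 2 forebrain arrays (Tyrobp was lost). In the fit of the compared groups alone 6 remained, as Tyrobp was lost and Fcer1g was not tested. Against spinal cord 9 were lower without the filter, Aif1 being added. With the replicate block, 8 of 8 genes were called between the tissues and 0 for genotype, and the block changed no call of a microglial gene; over all genes it moved the GFP calls from 3 to 0. Values that were not called changed sign when 1 array was left out, and over all arrays left out they ran as follows. Null minus heterozygous in forebrain ran from -0.53 to 1.45 for C1qa, from -0.10 to 0.42 for C1qc, from -0.16 to 0.34 for Csf1r and from -0.10 to 0.41 for Cx3cr1, and in spinal cord from -0.25 to 0.29 for Ctss. The genotype difference in spinal cord minus that in forebrain ran from -0.93 to 1.05 for C1qa, -0.18 to 0.28 for C1qb, -0.29 to 0.23 for C1qc, -0.069 to 0.78 for Cx3cr1 and -0.026 to 0.32 for Tyrobp. It was -0.065 for C1qb with probe sets without _s_at or _x_at, which read another probe set. Trem2 in neurospheres against forebrain ran from -0.71 to 0.046. Apart from these constructions the cause was not tested. Over all genes, calls for genotype ran from 0 to 10 in forebrain, from 1 to 20 in spinal cord and from 0 to 2 for their difference. Counts also moved by over 1.5 times for all probe sets, which tests more features (8640 calls between the tissues, 14934 and 15587 for neurospheres against forebrain and spinal cord, 1624 between neurosphere genotypes), for Olig2 (298 to 1787) and for GFP (0 to 5). With 2 embryos a genotype the intervals are wide, and most of them take in 0. Fcer1g in forebrain and Csf1r in spinal cord, whose intervals left out 0, did not pass the adjustment. The order of signals under the array median carries little weight.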

Other observations

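Further values of marker genes are given without explanation. Pf4 signal was 462 to 9177 in the 22 neurospheres and 259 to 313 in forebrain, and it was lower in null than in Olig-expressing cultures by 1.20 (adjusted p 0.020). In null lines it was also lower with the Olig2 virus than with GFP (-2.76, adjusted p 0.0050), as was P2ry12 (-1.70, 0.0066). Olfml3, on the same list as P2ry12, was higher with Olig2 (3.14, adjusted p 3.3e-04). No other tested gene of that list or of the border macrophage list was called. Cd163, Lyve1 and Stab1 reached the array median in 0 of the 22 cultures. P2ry12, a marker of microglia in tissue, read 94.3 to 884 in the neurospheres and 112 to 284 over the 8 tissue arrays. Tmem119 read 44.4 to 314 in neurospheres, against 445 to 694 in spinal cord. Trem2 was highest of all 30 arrays in the heterozygous line 11 with GFP, at 447, where its second probe set read 12.7.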
